A study of Mus musculus with 32 samples.

Results

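Peroxisomal β-oxidation genes were followed across the livers of fed and fasted mice of 2 genotypes on 2 diets. The set holds 9 of the 20076 genes in the count table, chosen by name and with earlier results of these data known. They include the importers Abcd2 and Abcd3, the bifunctional enzymes Ehhadh and Hsd17b4, and the thiolases Acaa1a and Acaa1b. The others are the auxiliary isomerases Ech1 and Eci2 and the proliferation factor Pex11a. All 9 were among the 11566 genes kept for testing. Male C57BL/6J mice were either wild type (WT) or Acadm-knockout (MCAD-KO, below KO), and received a low-fat (LF) or high-fat (HF) diet for 6 weeks. They were then killed fed or after a fast of 16 h, which gave 8 groups labelled with 4 mice each. The knockout is a lifelong loss of medium-chain acyl-CoA dehydrogenase in the whole animal, on a fixed strain background, and the ages are labelled 7.5 to 16 with no unit. The comparisons ask whether hepatic peroxisomal β-oxidation genes answer to fasting, whether the diet changes that answer, and whether either depends on MCAD.

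Peroxisomes shorten fatty acids that mitochondria handle poorly, such as very long-chain, branched and dicarboxylic acids. ABCD transporters bring the acyl-CoA into the organelle, where, once a first double bond is in place, a bifunctional enzyme hydrates and oxidizes the chain and a thiolase cleaves it. Isomerases move double bonds of unsaturated fatty acids to positions the cycle can use, and PEX11 proteins elongate and divide the organelle. In rodent liver many of these genes are known targets of the nuclear receptor PPARα, which binds with RXR to pairs of the half-site AGGTCA in direct repeat with 1 base between them.

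The promoters of the strongest responders to fasting and of the thiolase pair are shown so that they can be read beside the response. They are RefSeq sequences of GRCm38.p6, 5′ to 3′ on the strand of the gene, from 250 bases before to 50 bases after the start site, and capitals mark a loose half-site (AGGNCA on either strand).
Ehhadh (chr16:21787785-21788084, minus strand): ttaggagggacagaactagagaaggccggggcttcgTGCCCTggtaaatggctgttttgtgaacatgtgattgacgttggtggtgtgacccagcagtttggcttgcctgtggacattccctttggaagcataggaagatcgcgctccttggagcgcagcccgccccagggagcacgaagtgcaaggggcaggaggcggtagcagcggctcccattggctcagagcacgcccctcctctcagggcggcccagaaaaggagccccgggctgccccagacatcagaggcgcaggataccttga
Acaa1a (chr9:119341044-119341343, plus strand): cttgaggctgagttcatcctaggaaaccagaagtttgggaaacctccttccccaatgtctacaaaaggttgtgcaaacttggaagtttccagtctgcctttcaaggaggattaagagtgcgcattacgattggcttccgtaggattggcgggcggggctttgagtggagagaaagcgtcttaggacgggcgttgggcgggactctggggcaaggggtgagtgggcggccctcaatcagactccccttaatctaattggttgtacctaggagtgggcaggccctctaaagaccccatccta
Acaa1b (chr9:119157044-119157343, minus strand): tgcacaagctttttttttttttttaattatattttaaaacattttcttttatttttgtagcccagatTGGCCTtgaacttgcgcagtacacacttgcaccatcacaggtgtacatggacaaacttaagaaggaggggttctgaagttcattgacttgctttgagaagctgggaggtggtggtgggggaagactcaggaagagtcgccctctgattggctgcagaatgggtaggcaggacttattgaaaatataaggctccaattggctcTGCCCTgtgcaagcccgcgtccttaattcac
Pex11a (chr7:79743082-79743381, minus strand): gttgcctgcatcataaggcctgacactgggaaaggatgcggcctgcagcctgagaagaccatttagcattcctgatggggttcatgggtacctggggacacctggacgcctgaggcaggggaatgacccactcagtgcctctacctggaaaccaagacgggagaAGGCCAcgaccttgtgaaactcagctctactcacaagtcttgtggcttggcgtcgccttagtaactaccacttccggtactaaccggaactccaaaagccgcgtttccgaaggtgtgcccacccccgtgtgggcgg
Of the 9 genes, 7 had an entry in the promoter table, with 8 windows in all. The loose half-site was found in 6 of these 8 windows and in 57.2% of all 32851 windows of 300 bases. The exact half-site AGGTCA was in 0 of the 8 windows, against 16.3% of all windows, and the direct repeats AGGTCANAGGTCA and AGGNCANAGGNCA were also in 0 of the 8, against 0.0396% and 0.381%. A match within these 300 bases is a description of the letters only, and sites farther away or within introns were not searched.

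Counts on genes ranged from 2031053 to 4292200 per mouse, and levels are given as CPM (each count scaled to a common library total) after TMM scaling. Libraries were primed at the 3′ end. CPM values of one gene are compared between mice and not with those of other genes. In bulk liver, fewer cells of a type and less RNA per cell cannot be told apart. Acadm was at 8.98 to 37.1 CPM in the KO and at 190 to 748 CPM in the WT mice (log2 fold change -4.44 ± 0.12 (SE), 0.0461-fold, adjusted p = 6.60e-27). A hepatocyte marker list of 10 genes summed to 54072 to 82726 CPM in 30 mice. KO HF fasted replicate 4 had 982 CPM of it and 38322 CPM of 12 heart genes, which were at 0.366 to 64.3 CPM in the 30 mice, and WT LF fed replicate 2 had 44497 CPM of hepatocyte and 1177 CPM of stellate cell genes, which were at 372 to 612 CPM in the others. These 2 libraries were left out, and their effect is given beside the results. Acinar pancreas genes reached 18327 CPM in WT HF fasted replicate 2 and 2674 CPM in KO HF fed replicate 1, against 2.16 to 61.2 CPM in the other 28 mice, and adrenal cortex genes reached 136 and 55.9 CPM in KO LF fasted replicates 3 and 4. Acute-phase genes were higher in fasted than in fed WT mice on LF (741 to 974 against 384 to 496 CPM), where the median of liver macrophage genes was 356 CPM fasted and 488 CPM fed. In KO mice on LF the acute-phase medians were 892 CPM fasted and 503 CPM fed and the macrophage medians 325 and 530 CPM, and KO HF fasted replicate 3 had 3282 CPM of acute-phase genes; their part in the fasting effects was not tested. Counts of calls without either pair of libraries, an alternative added after the data had been seen, are given with the results or in the closing section.

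**Figure D1:**
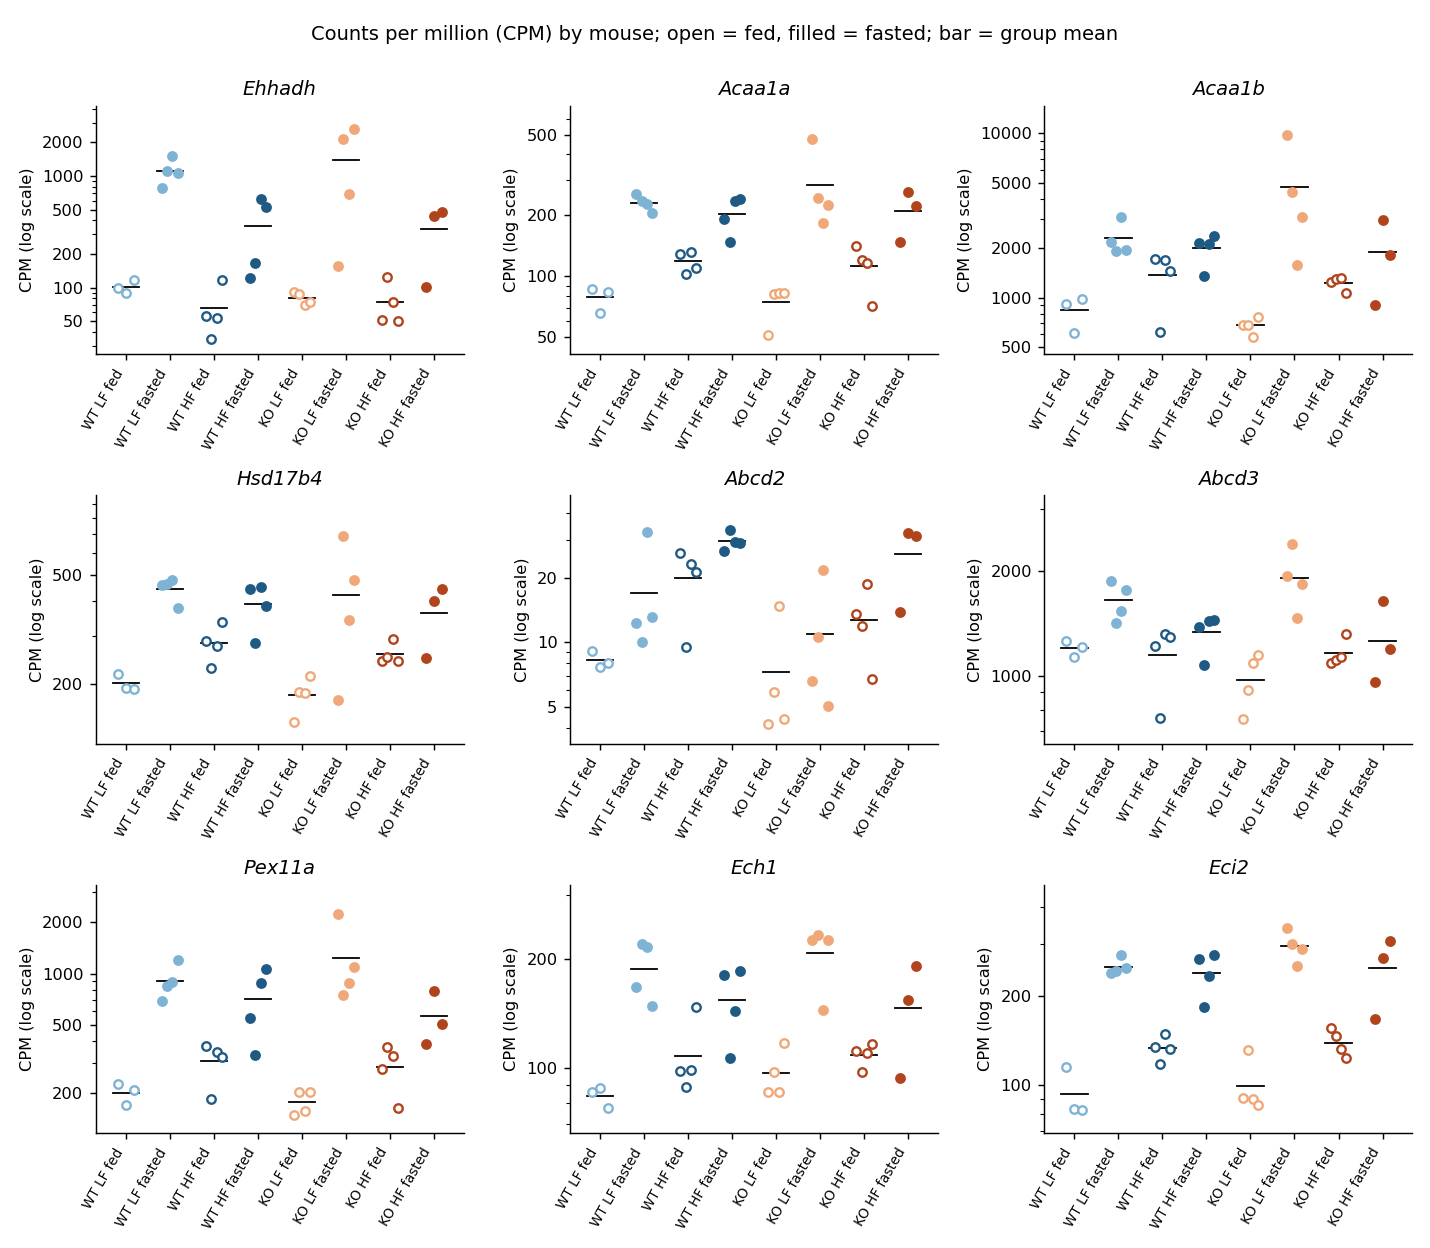
Each panel plots one gene in CPM on a log scale for the 30 mice in the 8 groups; open points are fed mice, filled points fasted mice, and bars group means. Fasted mice lie above fed mice for most genes, with the widest spread for Ehhadh in fasted mice, from 102 to 2629 CPM.

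Fasting raised all 9 genes when averaged over the 4 combinations of genotype and diet. The rise was 8.30-fold for Ehhadh, 3.45-fold for Pex11a, 2.55-fold for Acaa1b, 2.44-fold for Acaa1a and 2.24-fold for Eci2, and between 1.35-fold and 1.77-fold for Hsd17b4, Ech1, Abcd2 and Abcd3. The median log2 fold change over the 9 genes was 1.17, and over all genes tested it was -0.0022. All 9 passed an adjusted p of 0.05 (edgeR quasi-likelihood test with Benjamini-Hochberg adjustment over the 11566 genes), where 9.77% of all genes were called higher in fasted mice. The 9 calls held whichever single mouse was left out and without either pair of libraries with genes of other organs. With all 32 mice 7 were called, without Abcd2 and Abcd3, and with WT LF fed replicate 2 put back 8 were called, without Abcd2.

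Sequencing lane bears on this comparison because the 3 WT LF fed mice were all in lane 8. The labels name fewer lanes than the pool size in the methods implies, and the labels were used. Each lane was fitted with additive terms for genotype, diet and feeding, so that its fasting effect is one value over the settings present, which in lane 7 lack fed WT mice on LF. Within lane 7 all 9 log2 fold changes for fasting were positive, from 0.54 to 2.34, and 3 were called (Acaa1a, Ech1 and Eci2). Within lane 8 they were also all positive, from 0.35 to 3.63, and 8 were called, all but Abcd2.

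By setting, the rise was called for most genes on LF and for 1 gene on HF. In WT mice on LF 7 of 9 were called, where 3.75% of all genes were called higher, and in KO mice on LF 8 of 9, where 7.26% were. On HF the single call was Eci2 in both genotypes, where 0.268% of all genes were called higher in WT and 0.294% in KO mice. With all 32 mice 5 were called in WT mice on LF, without Acaa1b (adjusted p = 0.225) and Hsd17b4, and 6 in KO mice on LF, without Abcd3 (adjusted p = 0.112) and Hsd17b4. Without the 2 libraries with pancreas genes 6 were called in WT mice on LF, without Acaa1b (edgeR adjusted p = 0.0580), and 3 in WT mice on HF. Without the 2 with adrenal cortex genes 2 were called in KO mice on HF. The log2 fold changes were positive for all 9 genes in each of the 4 settings, with medians of 1.42 and 1.57 on LF and 0.56 and 0.83 on HF in WT and KO mice.

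Overlap of single mice showed the same split by value. In WT mice on LF every fasted mouse lay above each of the 3 fed mice for 9 of 9 genes, against 9.96% of all genes tested. For Abcd2 this rests on leaving out WT LF fed replicate 2, at 28.7 CPM, as the lowest fasted mouse had 10.0 CPM. For KO mice on LF the separation of fasted from fed mice held for 7 of 9 (6.73% of all genes), the exceptions being Hsd17b4 and Abcd2. On HF it held for 4 of 9 in WT mice (Ehhadh, Acaa1a, Abcd2 and Eci2; 3.23% of all genes) and for 3 of 9 in KO mice (Acaa1a, Pex11a and Eci2; 5.35%).

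**Figure D2:**
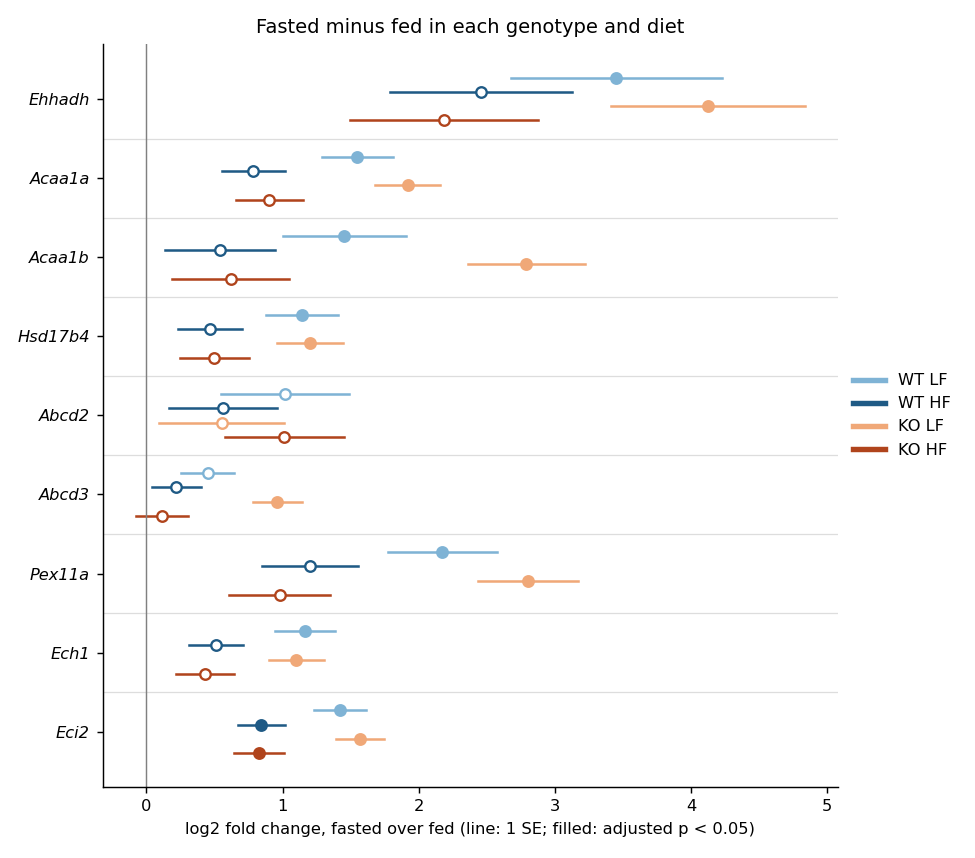
The log2 fold change of fasted over fed mice is plotted for each gene in the 4 settings; lines are 1 SE and filled points have an adjusted p below 0.05. Points on LF lie to the right of those on HF for every gene but Abcd2, and on HF only Eci2 is filled.

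Among the enzymes, Ehhadh, the L-bifunctional enzyme that acts on straight-chain and dicarboxylic acyl-CoA, had the largest rise and the widest spread. Ehhadh was at 99.0, 89.9 and 116 CPM in the 3 fed and at 783, 1098, 1496 and 1074 CPM in the 4 fasted WT mice on LF. The 4 fed WT mice on HF had 55.2, 34.8, 53.3 and 117 CPM of Ehhadh, and the 4 fasted ones had 121, 166, 617 and 525 CPM. In WT mice the groups did not overlap on either diet, although fasted mice on HF split into a lower and a higher pair. Fasted KO mice on LF held Ehhadh at 155, 2131, 689 and 2629 CPM (n = 4), against 91.6, 87.3, 69.0 and 73.9 CPM in the fed mice (n = 4). For Ehhadh in KO mice on HF the values were 50.6, 123, 74.8 and 50.01 CPM fed (n = 4) and 102, 434 and 478 CPM fasted (n = 3). In KO mice the groups were apart on LF, with replicate 1 far below the other fasted mice, and on HF the lowest fasted mouse lay below the highest fed one. The fasting effect was called on LF in WT (log2 fold change 3.45 ± 0.77 (SE), 10.9-fold, adjusted p = 0.00533) and in KO mice (log2 fold change 4.12 ± 0.71 (SE), 17.4-fold, adjusted p = 0.000299). On HF it was 2.46 ± 0.67 (adjusted p = 0.108) in WT and 2.18 ± 0.69 (adjusted p = 0.236) in KO mice, and DESeq2 called both, with adjusted p of 0.00626 and 0.0495.

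Hsd17b4, the D-bifunctional enzyme needed for very long-chain and branched substrates and for bile acid side chains, moved less. In fed mice it was at 193 to 219 CPM in WT and 146 to 214 CPM in KO mice on LF. In fasted mice on LF it was at 378 to 479.6 CPM in WT and, far more spread, at 175 to 689.9 CPM in KO mice. Fasting raised it on LF in WT (log2 fold change 1.14 ± 0.27 (SE), 2.20-fold, adjusted p = 0.00431) and in KO mice (log2 fold change 1.203 ± 0.24 (SE), 2.30-fold, adjusted p = 0.000645). On HF the values were 229 to 336 CPM fed and 283 to 450.1 CPM fasted in WT, and 242 to 293 CPM fed and 248 to 442 CPM fasted in KO mice, with log2 fold changes of 0.47 ± 0.24 (adjusted p = 0.578) and 0.50 ± 0.26 (adjusted p = 0.692). Both calls on LF were lost with all 32 mice (adjusted p = 0.0900 and 0.0536).

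The thiolases Acaa1a and Acaa1b, which cleave the shortened chain from acetyl-CoA, lie near each other on chromosome 9 and are close copies. Of the 50-base words in the last 400 bases of their coding transcripts, 33.1% of those of Acaa1a occur in Acaa1b and 36.2% of those of Acaa1b in Acaa1a. A read of such a word could not be assigned to either gene from its sequence alone. Their exons also overlap Myd88 and Dlec1 on the opposite strand, and the strand setting of the counting is not given in the sources used here. The 3 fed WT mice on LF had 86.5, 66.1 and 83.5 CPM of Acaa1a, and the 4 fasted ones had 253, 235, 229 and 206 CPM. Fasted WT mice on HF held Acaa1a at 192, 147, 236 and 240.4 CPM (n = 4), against 129, 103, 131 and 109.5 CPM in the fed mice (n = 4). The fasted WT mice lay above the fed ones on both diets, with a wider gap on LF. Acaa1a was at 51.3, 82.2, 82.4 and 82.3 CPM in the 4 fed and at 476, 243, 184 and 224 CPM in the 4 fasted KO mice on LF. For Acaa1a in KO mice on HF the values were 141, 121, 117 and 71.5 CPM fed (n = 4) and 147, 261 and 223 CPM fasted (n = 3). In KO mice the groups were apart too, by a narrow margin on HF, and replicate 1 of the LF fasted mice stood above all others. The fasting effect on Acaa1a was called in WT (log2 fold change 1.55 ± 0.26 (SE), 2.93-fold, adjusted p = 0.000116) and KO mice on LF (log2 fold change 1.92 ± 0.24 (SE), 3.78-fold, adjusted p = 6.35e-07), and on HF it was 0.78 ± 0.23 (adjusted p = 0.127) in WT and 0.90 ± 0.25 (adjusted p = 0.0975) in KO mice. It was called in WT mice on HF without the 2 libraries with pancreas genes (0.91, adjusted p = 0.0419) and by DESeq2 in both genotypes (adjusted p = 0.0485 and 0.0332).

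For Acaa1b in WT mice on LF the values were 911, 612 and 987 CPM fed (n = 3) and 2186, 1928, 3109 and 1948 CPM fasted (n = 4). Acaa1b was at 1729, 620.0, 1691 and 1450.2 CPM in the 4 fed and at 2148, 1354, 2126 and 2359.6 CPM in the 4 fasted WT mice on HF. On LF the fasted WT mice were all above the fed ones, and on HF the groups overlapped. The 4 fed KO mice on LF had 685, 681, 580.0 and 768 CPM of Acaa1b, and the 4 fasted ones had 9752, 4355, 1582 and 3092 CPM. Fasted KO mice on HF held Acaa1b at 899, 2969 and 1807 CPM (n = 3), against 1249, 1294, 1313 and 1073 CPM in the fed mice (n = 4). Fasted KO mice on LF covered a range of 1582 to 9752 CPM, all above the fed mice, and those on HF overlapped the fed mice. Fasting raised Acaa1b in KO mice on LF (log2 fold change 2.79 ± 0.43 (SE), 6.92-fold, adjusted p = 7.16e-05). In WT mice on LF the call was at the threshold (log2 fold change 1.45 ± 0.45 (SE), adjusted p = 0.049996) and was lost in 23 of the 30 fits that each left out 1 mouse, with the highest adjusted p (0.217) without WT LF fed replicate 3. With the 2 genes summed it was 1.46 ± 0.43 (adjusted p = 0.0371).

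Of the isomerases, Eci2, an enoyl-CoA isomerase that shifts double bonds of unsaturated acyl-CoA, was the gene called in all 4 settings. Fasted WT mice on LF held Eci2 at 238, 243, 275 and 248 CPM (n = 4), against 115, 83.5 and 82.2 CPM in the fed mice (n = 3). For Eci2 in WT mice on HF the values were 134, 118, 149 and 132 CPM fed (n = 4) and 265, 184, 234 and 274 CPM fasted (n = 4). On both diets the fasted WT mice were above the fed ones. Eci2 was at 90.3, 131, 90.0 and 86.1 CPM in the 4 fed and at 339, 299, 252 and 288 CPM in the 4 fasted KO mice on LF. The 4 fed KO mice on HF had 155, 146, 132 and 123 CPM of Eci2, and the 3 fasted ones had 167, 269 and 306 CPM. The same separation was seen in KO mice, with fasted replicate 1 on HF just above the highest fed mouse. The rise was called on LF in WT (log2 fold change 1.42 ± 0.19 (SE), 2.67-fold, adjusted p = 3.25e-06) and KO mice (log2 fold change 1.57 ± 0.17 (SE), 2.97-fold, adjusted p = 4.12e-08), and on HF in WT (log2 fold change 0.84 ± 0.17 (SE), 1.79-fold, adjusted p = 0.0130) and KO mice (log2 fold change 0.83 ± 0.18 (SE), 1.78-fold, adjusted p = 0.0238). The calls on HF did not hold without WT HF fed replicate 1 or 3 or fasted replicate 1, 3 or 4 (adjusted p up to 0.0869), nor without KO HF fed replicate 2, 3 or 4 or fasted replicate 2 or 3 (up to 0.319). Eci3, its close copy, was not found by symbol in the count table. It shares 9.72% of the 50-base words at the 3′ end of Eci2, and Eci2 exons overlap an antisense gene.

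Ech1, a dienoyl-CoA isomerase that also works in mitochondria, rose about as far as Hsd17b4. Fed mice on LF had 77.7 to 88.2 CPM in WT and 86.2 to 117 CPM in KO mice, and fasted mice on LF had 149 to 219.8 CPM and 145 to 233 CPM. The rise on LF was called in WT (log2 fold change 1.16 ± 0.22 (SE), 2.24-fold, adjusted p = 0.000397) and KO mice (log2 fold change 1.10 ± 0.20 (SE), 2.15-fold, adjusted p = 0.000133). On HF the fed mice had 88.9 to 148 CPM in WT and 97.4 to 117 CPM in KO mice and the fasted mice 107 to 186 CPM and 93.7 to 192 CPM, which overlapped, with log2 fold changes of 0.51 ± 0.20 (adjusted p = 0.341) and 0.43 ± 0.21 (adjusted p = 0.663).

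The importers had the smallest mean fasting effects over the 4 settings, although in KO mice on HF Abcd2 had the second largest log2 fold change of the 9. Abcd3 carries long-chain, branched and dicarboxylic acyl-CoA and bile acid intermediates. Its fed and fasted levels on LF were 1205 ± 62.5 CPM (SD, n = 3) and 1647 ± 209.7 CPM (SD, n = 4) in WT, and 978 ± 179 CPM (SD, n = 4) and 1904 ± 377 CPM (SD, n = 4) in KO mice. The call was in KO mice on LF (log2 fold change 0.96 ± 0.18 (SE), 1.95-fold, adjusted p = 0.000192), and the log2 fold change in WT mice on LF was 0.45 ± 0.19 (adjusted p = 0.173). On HF it was 0.22 ± 0.18 (adjusted p = 0.797) in WT and 0.11 ± 0.19 (adjusted p = 0.981) in KO mice. Abcd2, a transporter of very long-chain and polyunsaturated acyl-CoA that is better known from brain and fat, was at 4.16 to 33.5 CPM, which rested on as few as 13 counts in a mouse, so that its single values carry a larger counting error than those of the other genes. Its fasting effect was not called in any single setting, with log2 fold changes of 0.55 to 1.01, while the mean effect was 0.79 ± 0.22 (adjusted p = 0.0100). In WT mice on LF the value was 1.01, and 0.35 with all 32 mice.

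Pex11a, which drives the elongation and division of peroxisomes, had the second largest rise. Pex11a was at 226, 169.7 and 207 CPM in the 3 fed and at 689.5, 842, 897 and 1196 CPM in the 4 fasted WT mice on LF. Fasted WT mice on HF held Pex11a at 551, 334, 883 and 1067 CPM (n = 4), against 374, 185, 348 and 326 CPM in the fed mice (n = 4). WT mice did not overlap on LF, and on HF the lowest fasted mouse lay within the fed range. For Pex11a in KO mice on LF the values were 148, 201, 156 and 202 CPM fed (n = 4) and 2219, 747, 877.7 and 1089 CPM fasted (n = 4). The 4 fed KO mice on HF had 277, 371, 329.8 and 163 CPM of Pex11a, and the 3 fasted ones had 386, 794 and 506 CPM. KO fasted mice lay above the fed mice on both diets. The rise was called on LF in WT (log2 fold change 2.17 ± 0.40 (SE), 4.51-fold, adjusted p = 0.000768) and KO mice (log2 fold change 2.80 ± 0.37 (SE), 6.97-fold, adjusted p = 8.53e-06), and was 1.201 ± 0.35 (adjusted p = 0.139) in WT and 0.98 ± 0.37 (adjusted p = 0.423) in KO mice on HF. In WT mice on HF it was called without the 2 libraries with pancreas genes (1.43, adjusted p = 0.0324) and by DESeq2 (adjusted p = 0.0350).

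Next, the fasting effect on HF was compared with that on LF by the difference itself, averaged over the genotypes. It was smaller on HF for 8 of 9 genes, and the difference was called for 3: Pex11a (-1.40 ± 0.36, adjusted p = 0.0384), Acaa1a (-0.89 ± 0.24, adjusted p = 0.0379) and Eci2 (-0.66 ± 0.18, adjusted p = 0.0364, all on the log2 scale). Of all genes, 1.2% were called with a smaller fasting effect on HF. The median difference over the 9 genes was -0.69, and over all genes -0.0086. For Acaa1b the difference was -1.54 ± 0.42 (adjusted p = 0.0521) and for Ehhadh -1.47 ± 0.67 (adjusted p = 0.340), neither past the threshold, though DESeq2 and voom called Acaa1b (adjusted p = 0.00721 and 0.0305). Hsd17b4, Abcd3 and Ech1 had differences of -0.69 ± 0.25 (adjusted p = 0.161), -0.54 ± 0.19 (adjusted p = 0.129) and -0.66 ± 0.21 (adjusted p = 0.0846). For Abcd2 the fasting effect was nearly equal on both diets, with a difference of 0.0014.

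The 3 calls were close to the threshold. Leaving out 1 mouse at a time ended the call of Eci2 in 11 of 30 fits, of Acaa1a in 15 and of Pex11a in 17, with the highest adjusted p of 0.0975 (Eci2) and 0.0888 (Pex11a) without KO HF fasted replicate 1 and of 0.0906 (Acaa1a) without WT LF fed replicate 3. In all of these fits the difference stayed negative, from -0.75 to -0.55 for Eci2, from -0.98 to -0.70 for Acaa1a and from -1.56 to -1.17 for Pex11a. Without the 2 libraries with pancreas genes, both from HF mice, 0 of 9 were called (differences of -0.58, -0.76 and -1.29), and with all 32 mice 0 of 9. Without the 2 with adrenal cortex genes, both from the 4 KO LF fasted mice, 5 were called. Replicate 3, left out there, was the lowest of its group for 5 of 9 genes. With WT LF fed replicate 2 put back 4 were called. The part of RNA from other organs in these differences was not tested. With lane as a term the call of Acaa1a was lost (-0.87, adjusted p = 0.0718), and Ech1 was called (-0.76, adjusted p = 0.0359).

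**Figure D3:**
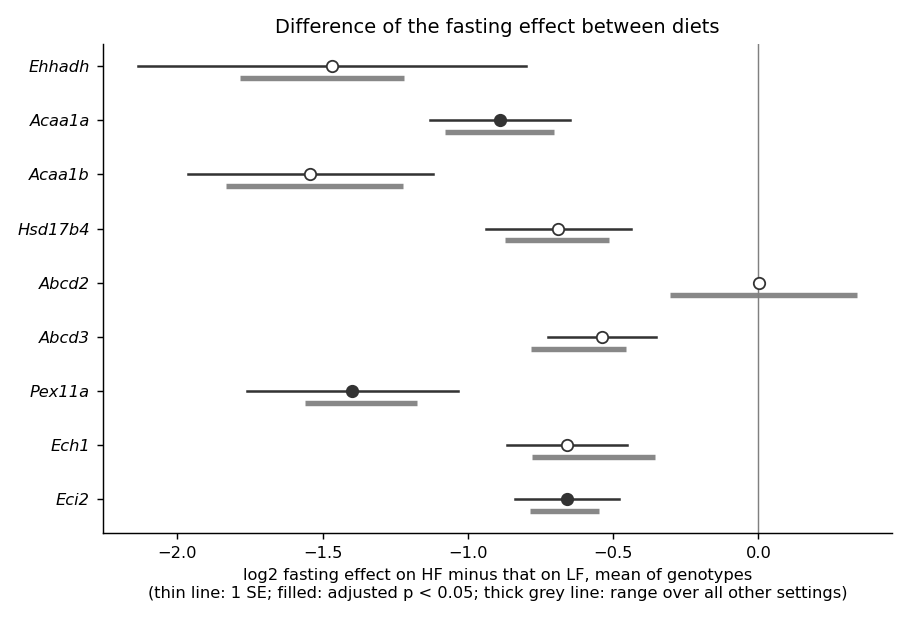
The point is the log2 fasting effect on HF minus that on LF, averaged over genotypes, with 1 SE (drawn where it could be computed); filled points have an adjusted p below 0.05, and the thick grey line spans the values under all other settings. For 8 genes the whole span lies below 0, and for Abcd2 it crosses 0.

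Diet itself was called for Abcd2 alone, which was higher on HF in the mean over genotype and feeding (log2 fold change 1.04 ± 0.22 (SE), 2.05-fold, adjusted p = 0.00551), where 3.49% of all genes were called in either direction. Among WT mice Abcd2 was at 7.71 to 9.13 CPM on LF and 9.52 to 26.1 CPM on HF when fed, and at 10.0 to 32.8 CPM and 26.7 to 33.5 CPM when fasted. The KO mice had 4.16 to 14.8 CPM and 6.73 to 18.6 CPM when fed and 5.08 to 21.6 CPM and 13.8 to 32.3 CPM when fasted, so that the diets did not overlap in fed WT mice and overlapped in the other 3 settings. The call held in all 30 fits that left out 1 mouse. WT LF fed replicate 2, left out here, had 28.7 CPM, above all fed mice shown on either diet. The lack of overlap in fed WT mice thus rests on leaving this mouse out. In fed WT mice the log2 difference between diets was 1.26, and 0.59 with all 32 mice. With WT LF fed replicate 2 put back the call of the mean held (0.87, edgeR adjusted p = 0.0470). The call was lost with all 32 mice (0.79, adjusted p = 0.159), within lane 7 (1.22, adjusted p = 0.0590) and within lane 8 (0.91, adjusted p = 0.297). Ehhadh went the other way, with a mean diet effect of -1.11 ± 0.33 (adjusted p = 0.0682) that DESeq2 and voom called (adjusted p = 0.0168 and 0.0346).

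In fed mice most of the 9 genes had higher values on HF, and in fasted mice lower ones. Fed on HF, the log2 difference was positive for 7 of 9 genes in WT mice (median 0.51) and for 8 of 9 in KO mice (median 0.49), yet 0 of 9 were called in either (0.0778% and 0.00865% of all genes called), with 3 and 4 at an unadjusted p under 0.05, where 604 and 840 of the 11566 genes were. In fed WT mice every HF mouse lay above every LF mouse for 5 of 9 genes (Acaa1a, Hsd17b4, Abcd2, Ech1 and Eci2), against 4.34% of all genes. For Abcd2 this rests on leaving out WT LF fed replicate 2, at 28.7 CPM. Among fed KO mice every HF mouse lay above every LF mouse for Acaa1b and Hsd17b4 (2.95% of all genes). The log2 difference in fed mice was 0.59 ± 0.25 in WT and 0.59 ± 0.23 in KO mice for Acaa1a, and 0.51 ± 0.19 and 0.49 ± 0.17 for Eci2.

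After fasting the sign was negative for 8 of 9 genes in both genotypes, with medians of -0.20 in WT and -0.50 in KO mice, and 0 of 9 were called (1.12% and 1.68% of all genes called), with 1 and 6 at an unadjusted p under 0.05, where 1419 and 1510 of the 11566 genes were. Ehhadh had the largest values (-1.64 ± 0.64 (adjusted p = 0.268) in WT and -2.05 ± 0.72 (adjusted p = 0.171) in KO mice). In KO mice Acaa1b was at -1.31 ± 0.45 (adjusted p = 0.157) and Pex11a at -1.13 ± 0.38 (adjusted p = 0.149), while Abcd2 was higher on HF, at 1.26 ± 0.45 (adjusted p = 0.162) in KO and 0.81 ± 0.40 (adjusted p = 0.422) in WT mice. DESeq2 called 4 of the 9 in fasted KO mice: Ehhadh, Acaa1b, Abcd3 and Pex11a, all lower on HF, with adjusted p of 0.0336 to 0.0454, and it called 399 of all genes there, against 194 with edgeR. The fed and fasted comparisons use different mice.

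**Figure D4:**
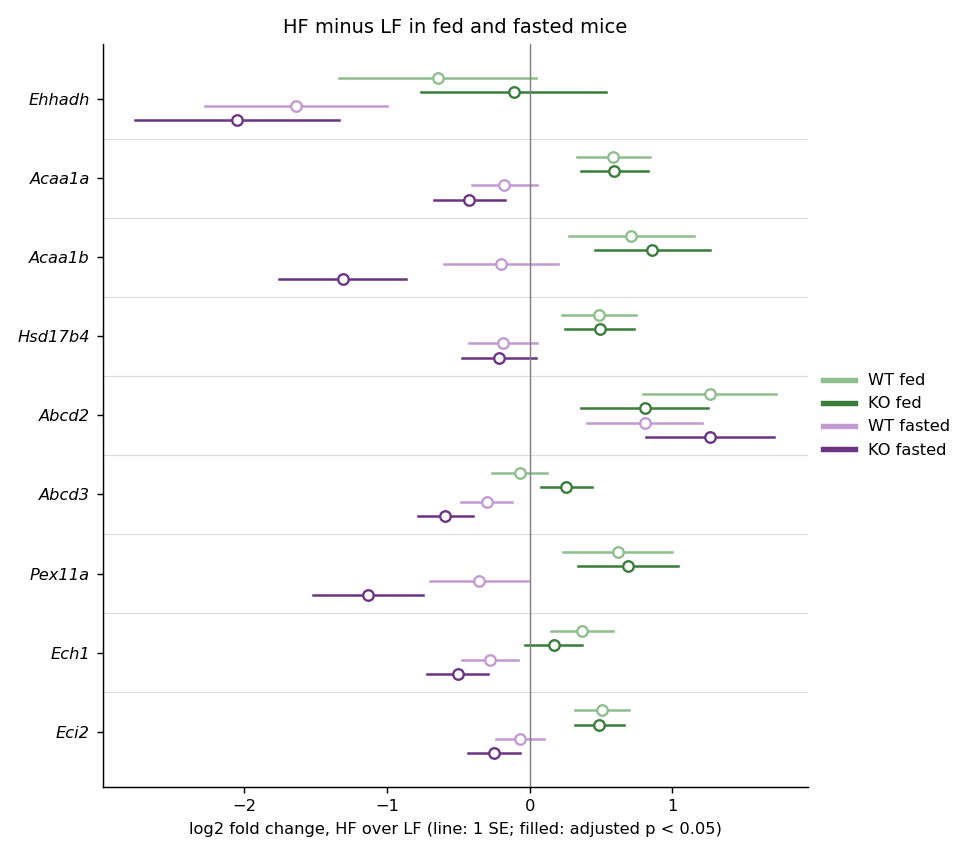
The log2 fold change of HF over LF is plotted for each gene in fed and fasted mice of both genotypes; lines are 1 SE, and all points are open because none had an adjusted p below 0.05. Except for Ehhadh, Abcd2 and fed WT mice for Abcd3, green points (fed) lie to the right of 0 and purple points (fasted) to the left.

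Loss of MCAD changed none of the 9 genes past the threshold. In the mean over diet and feeding 0 of 9 were called, where 0.00865% of all genes, which is Acadm alone, were. At an unadjusted p under 0.05 there were also 0 of 9, and 335 of the 11566 genes. The mean log2 difference of KO minus WT ran from -0.42 (95% interval -0.88 to 0.03) for Abcd2 to 0.12 (95% interval -0.31 to 0.56) for Acaa1b. For Pex11a it was -0.05 (95% interval -0.42 to 0.33) and for Ehhadh 0.03 (95% interval -0.66 to 0.71), the widest interval. These intervals do not exclude a difference of the size of their bounds.

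In each of the 4 settings the count was 0 of 9 as well, fed on LF (0.00865% of all genes called), fasted on LF (0.00865%), fed on HF (0.00865%) and fasted on HF (0.00865%), the 1 gene being Acadm each time, and DESeq2 and voom also called 0 of 9 in each genotype comparison. At an unadjusted p under 0.05 there was a single value, Acaa1b in LF fasted mice (1.03 ± 0.40 on the log2 scale, edgeR adjusted p = 0.778), where the KO group held the mice at 9752 and 4355 CPM and also one at 1582 CPM, below all WT mice. At that threshold there were 684 of the 11566 genes in LF fasted mice, and 450, 316 and 288 in LF fed, HF fed and HF fasted mice. WT and KO mice overlapped for all 9 genes in every setting, while 6.68%, 2.13%, 2.65% and 5.27% of all genes did not overlap on LF in fed and in fasted mice and on HF in fed and in fasted mice, in that order.

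**Figure D5:**
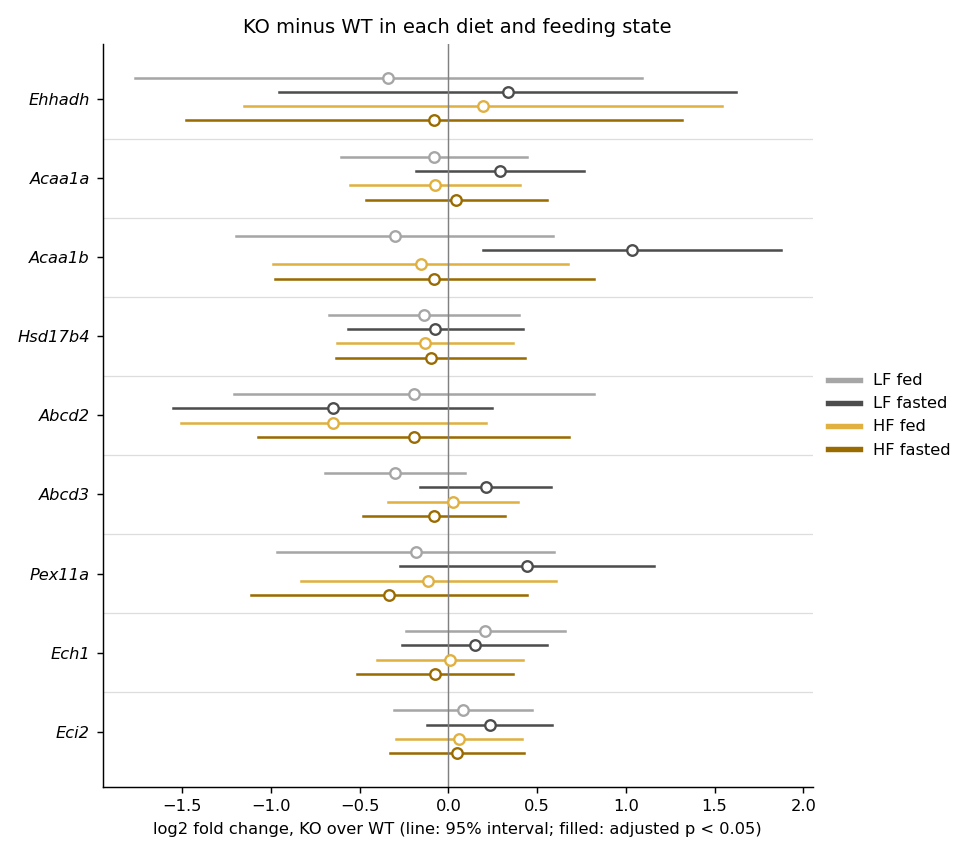
The log2 fold change of KO over WT is plotted for each gene in the 4 settings of diet and feeding, with its 95% interval; no point is filled. All intervals include 0 but that of Acaa1b in LF fasted mice, and those of Ehhadh are the widest.

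Whether the fasting or the diet effect depended on genotype was also tested as a difference. For the fasting effect, KO minus WT, 0 of 9 genes were called, with 0% of all genes called by edgeR and 573 at an unadjusted p under 0.05, none of the 9 among them. The largest was Acaa1b at 0.71 ± 0.42 (adjusted p = 0.981). For the diet effect, KO minus WT, and for the three-way difference 0 of 9 were called too (0% and 0% of all genes, with 397 and 408 at an unadjusted p under 0.05), with values from -0.48 to 0.06 and from -1.26 to 0.91.

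Neighbouring gene groups give the setting for these values. Here rose and fell stand for an adjusted p below 0.05 in the mean fasting effect, where 9.77% of all genes rose, and log2 values are given with their SE. Of 22 tested genes of other peroxisomal fatty acid oxidation, among them thioesterases and carnitine acyltransferases, 12 rose and 2 fell with fasting and 18 were positive (median 0.53), among them Acot3 (3.68 ± 0.38), a thioesterase, Crat (1.84 ± 0.19), which makes acylcarnitines, and Nudt7 (-1.88 ± 0.10), which degrades coenzyme A and fell; Acot4, a further thioesterase, rose by 1.56 ± 0.19. Acot3 and Crat had a smaller fasting effect on HF (-3.10 ± 0.81 and -1.65 ± 0.38), and Nudt7 fell less there (1.86 ± 0.19).

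Of 15 peroxins, which build the organelle, 8 rose and 0 fell with fasting and 12 were positive (median 0.31), the largest being Pex14 (0.66 ± 0.11), Pex19 (0.62 ± 0.09) and Pex26 (0.56 ± 0.13), and 0 of 15 had a called difference between diets. Mitochondrial counterparts rose for 8 of 10 genes, with 9 positive (median 0.57), led by Hadhb (1.02 ± 0.14), Eci1 (0.92 ± 0.11), Decr1 (0.85 ± 0.11) and Hadha (0.73 ± 0.10), and Acadl alone had a smaller fasting effect on HF (-0.59 ± 0.16). PPARα targets outside the peroxisomal pathway rose for 10 of 12 genes, with 11 positive (median 1.54), led by the ω-hydroxylases Cyp4a14 (4.97 ± 0.49) and Cyp4a10 (4.22 ± 0.31), then Acot1 (3.66 ± 0.26) and Vnn1 (2.38 ± 0.29). Of these 12, 7 had a smaller fasting effect on HF, among them Cyp4a14 (-4.03 ± 0.85), Acot1 (-2.16 ± 0.49) and Cyp4a10 (-2.15 ± 0.56). Of 11 receptors and coregulators 4 rose and 10 were positive, among them Ppara itself (0.63 ± 0.13), its coactivator Ppargc1b (0.53 ± 0.19) and Rxra (0.29 ± 0.08), and Ppard fell (-1.34 ± 0.23). Genotype was called for 0 genes of these lists.

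The 9 genes differed in the range of their means over the 8 groups, from 0.96 on the log2 scale for Abcd3 to 4.19 for Ehhadh, and the distances that follow grow with that range as well as with a difference in shape. By the root mean square difference of their centred mean log2 levels, Acaa1a and Eci2 were the closest pair (0.0921), followed by Hsd17b4 and Ech1 (0.183), whereas Ehhadh was farthest from Abcd2 (1.56). Of the 7397 genes with a mean of at least 10 CPM, those outside the set were searched. Rsad1 was the closest to Acaa1a (0.0709), and the next Hsd17b10 (0.0931), which was also among the 2 closest to Eci2 (0.0976). Mgll, a monoglyceride lipase, was closest to Acaa1b (0.122), and Rhbdd2 and Crat to Pex11a (0.154 and 0.165). Scyl2 was closest to Ech1 (0.0431), Cmbl to Hsd17b4 (0.0831), and Mttp, which loads lipid onto lipoproteins, to Abcd3 (0.0594). Ehhadh had no gene as close, with St3gal5 and Por, the reductase that serves cytochromes P450, at 0.428 and 0.477, and the nearest to Abcd2 was Abcc3 (0.240), an exporter of organic anions. These distances rest on 8 group means that share the same mice.

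Across groups, the order of the means put the LF fasted groups first for 8 of 9 genes and an LF fed group last for 8 of 9. For every gene but Abcd2 the 4 fasted groups all ranked above the 4 fed groups. For Acaa1a, Pex11a and Eci2 there was no overlap between the mice of the fourth and the fifth group. Even so, for Pex11a a mouse of the WT HF fasted group, at 334 CPM, lay below a WT HF fed mouse at 374 CPM. Neighbouring groups overlapped in all but 1 step of the order for Ehhadh, Acaa1a, Acaa1b, Hsd17b4, Pex11a and Eci2, and in every step for Abcd2, Abcd3 and Ech1. Abcd2 was ordered otherwise, with both HF fasted groups first at 29.6 ± 2.83 CPM (SD, n = 4) and 25.8 ± 10.3 CPM (SD, n = 3).

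In some groups a single mouse was the lowest for most or all of the 9 genes. KO HF fasted replicate 1 and WT HF fed replicate 2 were the lowest of their groups for 9 of 9 genes, and WT HF fasted replicate 2, the library with 18327 CPM of pancreas genes, for 7 of 9. Of the 12 PPARα targets outside the peroxisomal pathway, these mice were the lowest for 12, 10 and 12, in that order. Their low ranks were thus not particular to the 9 genes, and the share over all genes is not given here. KO LF fasted replicate 1 had mixed ranks. It was the lowest of its group for Ehhadh (155 CPM, the others 689 to 2629) and Hsd17b4 (175 CPM, the others 341 to 690) and the highest for Acaa1a, Acaa1b, Pex11a and Eci2. Without this mouse the fasting effect in WT mice on HF was called for Ehhadh (adjusted p = 0.0345) and Acaa1a (adjusted p = 0.0261), Ehhadh was called in the mean diet effect (adjusted p = 0.0145), and the difference between diets was called for Hsd17b4 (adjusted p = 0.0106) and no longer for Pex11a (adjusted p = 0.0561). In KO mice on HF the fasting effect on Acaa1a was then called as well (adjusted p = 0.0161).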

How the data were processed

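RNA from samples labelled liver, of 32 mice, was sequenced as 3′ end libraries (QuantSeq, single reads). According to the methods and the submitters' processing notes, the authors aligned reads to GRCm38/mm10 with HISAT 0.1.5, sorted them with SAMtools 1.2 and deposited raw read counts per gene from HTSeq 0.6.1p1; the strand setting is not given in the sources used here. Totals were 2031053 to 4292200 counts per mouse, which limits precision most for Abcd2. Of 20076 genes, 163 had no symbol (0.125% of counts).

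Groups came from the labels, and WT mice are described as littermates of the KO mice, but no label gives the litter of a mouse. Left out from the start were 2 libraries, the fourth fasted KO mouse on HF and the second fed WT mouse on LF. A model of 8 group means for 30 mice was fitted to genes that passed edgeR's filter on low counts (edgeR 4.0.16 in R 4.3.3, TMM, quasi-likelihood F test, Benjamini-Hochberg adjustment over 11566 genes, threshold 0.05), with contrasts for fasting, diet, genotype and their differences. The SE is the absolute log2 fold change divided by the square root of F, and 95% intervals use a t distribution with 22 residual degrees of freedom. The fit was tried on simulated counts with the same dispersion for all genes, for the mean fasting effect only. Alternatives were DESeq2 1.42.0, voom (limma 3.58.1), other scaling, no filter, lane, age and replicate terms, the 2 groups compared alone, each lane alone, other sets of mice and summed thiolase counts; 2 of them, without libraries with genes of other organs, were chosen after seeing the data.

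The 9 genes and all lists were chosen with earlier results of these data known. Named besides them were Acadm, up to 4 genes of each list with the largest called mean fasting effect, up to 3 with the largest called difference, and the 2 genes nearest to each member in pattern, of which some are given; a few genes that this rule names are not reported here.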

Additional observations from a re-analysis of the deposited data

Results flagged for a closer look

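In 6 of 54 sets of 4 mice, 1 mouse lay far from the other 3 by Dixon's test, which flags about 1 in 20 such sets by chance. Acaa1a was at 51.3 CPM in 1 KO LF fed mouse and at 82.2 to 82.4 CPM in the others. Abcd2 was at 32.8 CPM in 1 WT LF fasted mouse (the others 10.0 to 13.2 CPM) and at 14.8 CPM in 1 KO LF fed mouse (the others 4.16 to 5.90 CPM). Ech1 reached 148 CPM in 1 WT HF fed mouse (the others 88.9 to 98.6 CPM) and was at 145 CPM in 1 KO LF fasted mouse (the others 226 to 233 CPM). Eci2 was at 131 CPM in 1 KO LF fed mouse and at 86.1 to 90.3 CPM in the others.

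The fasting effect differed between the diets by a test of the difference itself (edgeR, Benjamini-Hochberg adjusted) for Acaa1a, at -0.89 on the log2 scale for HF minus LF (adjusted p = 0.0379), for Pex11a at -1.40 (adjusted p = 0.0384) and for Eci2 at -0.66 (adjusted p = 0.0364). In a library left out of the comparisons, KO HF fasted replicate 4, Ech1 was at 464 CPM, above the highest value of 233 CPM in the 30 mice. By its marker genes that library was heart and not liver (982 CPM of hepatocyte and 38322 CPM of heart genes).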

How the results depend on the processing

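Under 45 settings other than the one reported, not all of which apply to every result, 7325 values of the 9 genes were compared with it. Of the 1340 called in either, 0 changed sign, and 275 that were called in neither did so. The 9 calls of the mean fasting effect became 3 within lane 7. For fasting in WT mice on HF, 1 call became 0 with all 32 mice, 4 with DESeq2, 2 with the groups compared alone and 3 without the libraries with pancreas genes. For fasting in KO mice on HF, 1 became 0 with all 32 mice, 0 with WT LF fed replicate 2 put back, 3 with DESeq2 and 2 without the libraries with adrenal cortex genes. The 1 call of the mean diet effect became 0 with all 32 mice, 0 within lane 7, 0 within lane 8, and 2 with DESeq2 or voom. The 0 calls for diet became 1 in fed KO mice with the groups compared alone, and in fasted KO mice 4 with DESeq2 and 1 without the libraries with adrenal cortex genes. The 3 calls of the difference of the fasting effect between diets became 0 with all 32 mice, 1 with no filter on low counts, 0 without the libraries with pancreas genes and 5 without those with adrenal cortex genes. The cause was not tested.

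Leaving out each mouse in turn gave 9 to 9 calls for the mean fasting effect, 6 to 7 for WT LF, 0 to 3 for WT HF, 8 to 8 for KO LF and 0 to 2 for KO HF, 1 to 2 for the mean diet effect, 0 to 2 for diet in fasted KO mice, 0 to 5 for the difference between diets, and 0 for the other results. With the replicate block, the call for KO HF became 0 and the 3 calls of the difference between diets became 0. Same-numbered mice of different groups had residual correlations of -0.204 to 0.168 (median 0.00603), so the numbers were not taken to pair mice.

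Over all genes, the fasting effect in WT mice on HF had 49 calls, 172 with DESeq2, 85 with its 2 groups alone and 0 with all 32 mice. In KO mice on HF it had 61, 147 with DESeq2, 30 with the replicate block and 16 with WT LF fed replicate 2 put back. The mean fasting effect had 2187 (344 within lane 7), the mean diet effect 404 (81 with all 32 mice, 53 within lane 7 and 85 within lane 8), and the difference of the fasting effect between diets 285 (22 with all 32 mice, 435 with DESeq2). Eci2 and Eci3 could not be summed, because Eci3 was not found by symbol in the count table.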
